A study of Oryza sativa with 4 samples.

Results

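The probe sets described here were dim in rice leaves kept in normal air and bright after 6 h under 30% CO2. They were selected on the measured values themselves. A probe set is a group of short probes meant to read a transcript, and some may read more than 1. It was taken when both control values were below 5 and both 30% CO2 values were at or above 8 on the log2 scale. A difference of at least 8-fold is therefore part of the choice. Of 57194 probe sets, 44 met both limits. PDC1 (LOC4339066), a pyruvate decarboxylase, and ADH2 (LOC4350054), an alcohol dehydrogenase, were left out, which leaves 42 probe sets. Of these, 28 belong to 26 single genes, 1 is assigned to LOC4340085 and LOC4340079 together, and 13 are assigned to no gene in the annotation used here.

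The treated plants were rice (Oryza sativa, cultivar Senia) at the second vegetative stage (V2), shut in bags into which CO2 was injected up to 30% and held for 6 h in the dark at 27 ± 2 °C. Control plants were held in the dark at that temperature for as long in normal air, given as 0.04% CO2; whether they were bagged is not stated. Each group has 2 biological replicates, a replicate being the pooled leaves of 10 plants, and all plants were raised in days of 16 h light and 8 h dark. RNA was hybridised to Affymetrix rice arrays and the signals are log2 values per probe set.

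Carbon dioxide is a leaf's source of carbon in the light and, dissolved in cell water, forms carbonic acid. The pair left out by name carry out ethanol fermentation, in which pyruvate decarboxylase and alcohol dehydrogenase turn pyruvate into ethanol, the route rice is known to use when oxygen is short. A gene is often called switched on when its transcript becomes detectable; an array reads only brightness.

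The pattern was rare. Both controls were below 5 in 34893 probe sets, which is 61.01% of the array, and the 42 are 0.12% of these. Both 30% CO2 values were at or above 8 in 7578 probe sets. The 42 are 0.554% of these, while 6463 of them (85.29%) were also at or above 8 in both controls. The opposite pattern, below 5 in both 30% CO2 samples and at or above 8 in both controls, was found in 4 probe sets. One of them read LOC4324430, with 4.62 and 4.23 in the 30% CO2 samples and 9.72 and 9.36 in the controls.

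Across the 42 probe sets the lowest, median and highest signals were 8.08, 9.95 and 12.38 in 30% CO2 replicate 1, and 8.06, 9.09 and 11.61 in 30% CO2 replicate 2. In control replicate 1 they were 1.96, 3.79 and 4.97, and in control replicate 2 they were 1.98, 3.58 and 4.86. The brightest probe set of any array lay between 13.65 and 13.88, so the switched-on genes reached the upper part of the range but not its top. The mean under 30% CO2 stood between the 86.17th and the 99.42nd percentile of all probe sets, and the mean in controls between the 3.24th and the 60.55th. In 23 of the 42 the control mean was below the array's median of 3.86. The deposited values carry no detection calls, so a low control signal cannot be told from none.

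The difference between 30% CO2 and control means ran from 3.57 to 8.20 log2 units with a median of 6.47, or 11.85-fold to 293.1-fold with a median of 88.86-fold. These folds are ratios of array signals. Where a control signal is background, the ratio depends on the floor of that probe set, so neither a fold nor the order of the folds measures how much the transcripts differed. The median difference over all probe sets was 0.02. The 42 hold 30 of the 50 largest differences on the array, and 20 of them differed by over 100-fold. They were chosen by this same difference, so the choice itself favours a high rank. limma (adjusted p 0.05, Benjamini-Hochberg over all probe sets) called 42 of the 42 higher under 30% CO2, beside a background of 4.73% of all probe sets called higher. The limits that chose them fix this count, and nothing is read from it. In whole leaves, a change in the number of cells of a type and a change in RNA per cell cannot be told apart.

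**Figure D1:**
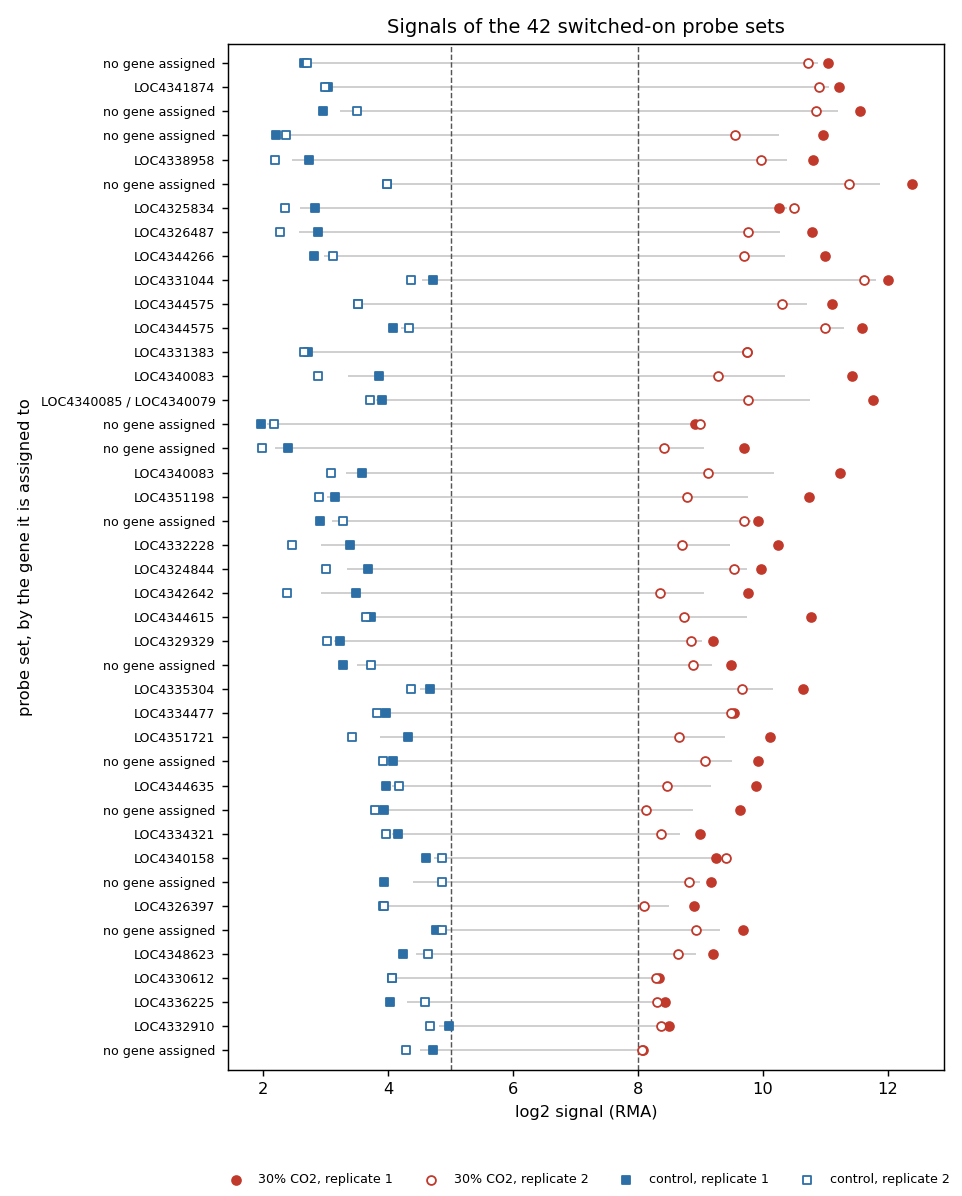
Log2 signal of each of the 42 probe sets (rows, largest difference at the top) in the 2 samples under 30% CO2 and the 2 controls. The 30% CO2 points lie at or above 8 and the control points below 5, the limits by which the probe sets were chosen.

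**Figure D2:**
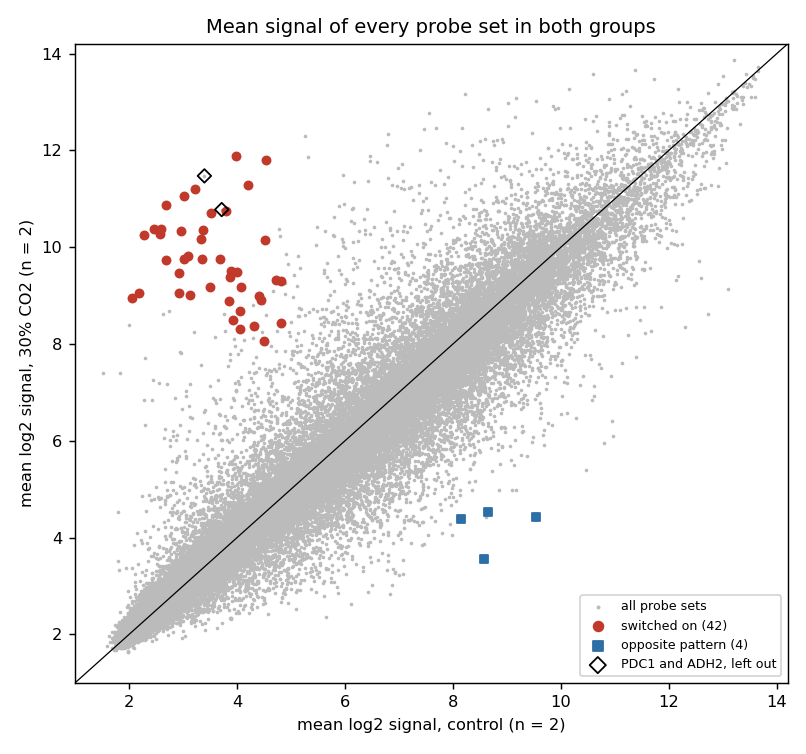
Mean log2 signal of all 57194 probe sets under 30% CO2 against the mean in controls, with the 42 switched-on probe sets marked. Squares are the 4 probe sets of the opposite pattern and diamonds PDC1 and ADH2; the switched-on points occupy a corner of low control and high 30% CO2 signal that few other probe sets reach.

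None of the 26 genes carries a name other than a locus identifier in the gene table, where 13.67% of the 17905 genes on the array have one. This count of 0 is partly made by the choice, since PDC1 and ADH2, the 2 named genes that met the limits, were left out by name. No description was available for them, so none is given a role here. All 26 are listed as protein coding, as are 99.07% of the array's genes. Their median span is 2449 bp, with a range of 829 to 6593 bp, beside 3526 bp for all genes on the array. A single transcript is listed for 22 of them (84.62%, beside 70.57% of the array's genes), and 25 have only predicted transcript models. They lie on 11 of the 12 chromosomes, with 5 on chromosome 3, 4 on chromosome 1 and 3 each on chromosomes 2, 6 and 8.

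One group of genes with a locus identifier had signal ratios of over 100, a dividing line used only to order the description. It holds 10 single genes and the shared probe set of LOC4340085 and LOC4340079. The largest difference in signal among them was that of LOC4341874, with 11.22 and 10.90 in the 30% CO2 samples and 3.03 and 2.99 in the controls. Both 30% CO2 samples were high and alike, and the groups were 8.05 ± 0.16 log2 units apart (SE, n = 2 each), or 264.4-fold. LOC4338958 read 10.79 and 9.96 under 30% CO2 and 2.73 and 2.18 in controls, 242.3-fold. LOC4325834 read 10.26 and 10.50 under 30% CO2 and 2.83 and 2.34 in controls, 222.1-fold, and was among the few brighter in 30% CO2 replicate 2.

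LOC4326487 read 10.78 and 9.76 under 30% CO2 and 2.87 and 2.26 in controls, 208.7-fold. LOC4344266 read 10.99 and 9.70 under 30% CO2 and 2.81 and 3.12 in controls, 166.1-fold. In both genes the second 30% CO2 sample was the dimmer by over 1 log2 unit. LOC4331044 had the highest mean signal of the assigned genes under 30% CO2, with 12.00 and 11.61, and 4.72 and 4.37 in controls. Its mean stood at the 99.36th percentile of the array under 30% CO2, and the groups differed 153.7-fold.

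LOC4344575 is read by a pair of probe sets, both of which met the limits. One gave 11.10 and 10.31 under 30% CO2 and 3.52 in both controls, and the other gave 11.59 and 10.99 under 30% CO2 and 4.07 and 4.34 in controls. The differences were 7.19 ± 0.28 and 7.08 ± 0.24 log2 units (SE, n = 2 each). Both probe sets were chosen by the same limits, and whether their probes overlap was not tested. Their close sizes are therefore not independent support. LOC4331383 had the closest 30% CO2 replicates of all, 9.74 in both to 2 decimals, and 2.72 and 2.65 in controls, 133.2-fold. LOC4351198 had 10.73 and 8.78 under 30% CO2 and 3.15 and 2.89 in controls.

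The remaining 16 genes and 6 unassigned probe sets had signal ratios of 11.85 to 93.27. Their means were 8.07 to 10.15 under 30% CO2 and 2.92 to 4.82 in controls. LOC4332228, LOC4324844, LOC4342642 and LOC4344615 stood at the upper end, with differences of 6.54, 6.40, 6.12 and 6.06 log2 units. LOC4344615 showed 10.76 and 8.74 under 30% CO2 and 3.73 and 3.64 in controls, so its 30% CO2 samples lay 2.03 log2 units apart.

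LOC4329329, LOC4335304, LOC4334477, LOC4351721 and LOC4344635 followed, with differences of 5.89, 5.64, 5.62, 5.51 and 5.11 log2 units. LOC4334477 was among the steadiest, with 9.53 and 9.49 under 30% CO2 and 3.96 and 3.82 in controls. LOC4334321, LOC4340158, LOC4326397 and LOC4348623 lay between 4.48 and 4.61 log2 units. LOC4330612 showed 8.33 and 8.29 under 30% CO2 and 4.06 in both controls, 18.99-fold, and LOC4336225 differed by 4.06 log2 units. The smallest difference of an assigned gene was 3.61 log2 units in LOC4332910, with 8.49 and 8.37 under 30% CO2 and 4.97 and 4.67 in controls.

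The 13 probe sets without an assigned gene are 30.95% of the 42, beside 60.61% of the whole array. They include the largest difference in signal, Os.54362.1.S1_at, with 11.03 and 10.71 in the 30% CO2 samples and 2.66 and 2.70 in the controls, 293.1-fold. OsAffx.25723.1.S1_at read 11.56 and 10.84 under 30% CO2 and 2.95 and 3.50 in controls, 251.9-fold. Os.20154.1.S1_at read 10.95 and 9.55 under 30% CO2 and 2.21 and 2.36 in controls. Over the 13, signals under 30% CO2 ran from 8.08 to 12.38 in replicate 1 and from 8.06 to 11.37 in replicate 2. The highest and the lowest 30% CO2 values of the 42 are both among them.

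Os.4683.3.S1_at held the highest single value of the 42, 12.38 in 30% CO2 replicate 1, with 11.37 in replicate 2 and 3.98 and 3.97 in controls. Its name shares the number 4683 with PDC1's probe set, which read 12.38 and 10.57 under 30% CO2 and 3.22 and 3.57 in controls. Whether Os.4683.3.S1_at reads PDC1 was not tested. A probe set of LOC4325311 has the same number and read 7.52 and 8.84 under 30% CO2 and 10.03 and 9.98 in controls. It was not called by limma (adjusted p = 0.0681). Probe sets with the same number can therefore belong to different genes, and the number was not used to assign a gene.

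OsAffx.2917.1.S1_at and OsAffx.2917.1.S1_s_at, which share a number, both met the limits, with differences of 6.89 and 6.72 log2 units. Os.39942.2.S1_a_at had 9.69 and 8.41 under 30% CO2 and 2.40 and 1.98 in controls. Another probe set of that number, Os.39942.1.S1_x_at, just missed with 9.16 and 7.63 under 30% CO2 and 1.96 and 2.05 in controls. So did Os.39942.2.S1_x_at, with 9.46 and 7.90 under 30% CO2 and 3.20 and 2.27 in controls. The other 6 unassigned probe sets, OsAffx.14410.1.S1_s_at, Os.9997.1.S1_x_at, Os.50402.1.S1_at, Os.55650.1.A1_at, OsAffx.11862.1.S1_at and OsAffx.24805.1.S1_s_at, differed by 3.57 to 5.69 log2 units. Probe sets whose names end in _s_at or _x_at may pick up more than 1 transcript, and they are 7 of the 42 (16.67%) and 17.43% of the array.

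Whether a gene counts as switched on depended on which probe set read it. Of the 26 genes, 21 have a single probe set and 5 have more. For LOC4330612, a second probe set gave 12.93 and 13.09 under 30% CO2 and 9.66 and 9.43 in controls, a clear signal in control leaves. For LOC4332228, a second probe set gave 11.69 and 11.67 under 30% CO2 and 9.31 and 8.78 in controls. These 2 genes are therefore better described by their locus identifiers than as switched on.

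A brighter probe set of LOC4340083 read 12.36 and 11.08 under 30% CO2 and 7.25 and 6.88 in controls, a level also above the limit. For LOC4335304, a second probe set just missed, with 10.88 and 9.87 under 30% CO2 and 5.03 and 4.52 in controls. Its remaining probe set was dimmer, with 8.32 and 6.09 under 30% CO2 and 2.63 and 2.49 in controls. In all, 6 other probe sets of 4 genes missed the limits. Limma called these 6 higher, beside 4.73% of all probe sets. Their genes were chosen by the same contrast, so nothing is read from this count. Counting a gene once, by its brightest probe set, left 22 genes that met the limits.

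**Figure D3:**
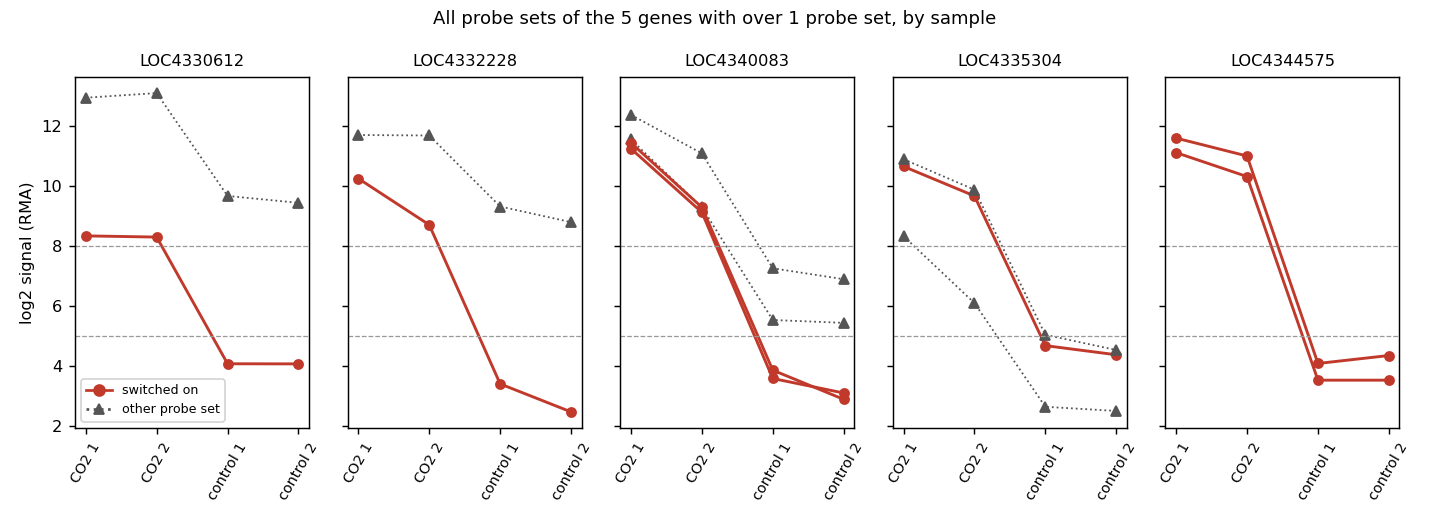
Log2 signal of every probe set of the 5 genes with more than 1, in the samples under 30% CO2 and in controls. LOC4330612 and LOC4332228 each have a probe set whose control values are near 9, while both probe sets of LOC4344575 are below 5 in controls.

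The 30% CO2 replicates were not equally bright. Replicate 1 was above replicate 2 in 39 of the 42 probe sets (92.86%), with LOC4325834, LOC4340158 and OsAffx.2917.1.S1_at as the exceptions. Among the other 7536 probe sets with both 30% CO2 values at or above 8 this share was 42.0%, and among 993 of those that limma called higher by at least 2-fold it was 76.74%. The gap between replicates had a median of 0.73 log2 units in the 42, against 0.196 and 0.275 in those other sets. A limma call favours a small gap between replicates, so the value of 0.275 is partly set by that choice. These shares and gaps describe a single pair of samples and carry no test.

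The gap was over 1 log2 unit in 15 probe sets, under 0.5 in 16 and over 2 in 4. The widest were a probe set of LOC4340083, with 11.43 and 9.28 under 30% CO2, the other switched-on probe set of that gene, with 11.24 and 9.11, LOC4344615, and the shared probe set of LOC4340085 and LOC4340079, with 11.77 and 9.75. Even there the lower 30% CO2 value was far above both controls: over the 42, the lowest 30% CO2 value exceeded the highest control value by 3.35 to 8.02 log2 units. By the same limits on the samples left, 86 probe sets met them without 30% CO2 replicate 2, and 43 without replicate 1.

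**Figure D4:**
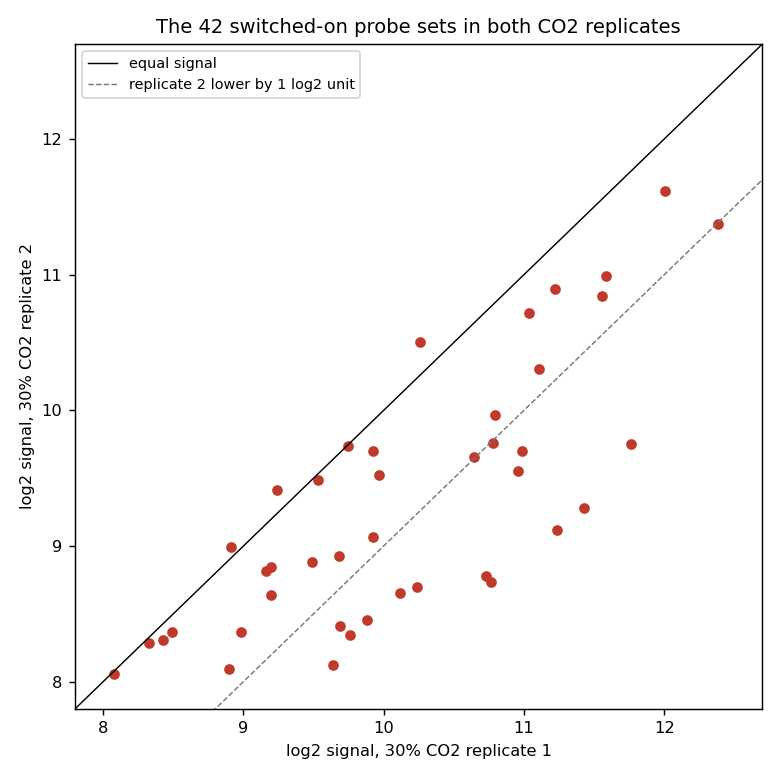
Log2 signal of the 42 probe sets in 30% CO2 replicate 1 (x axis) and replicate 2 (y axis), with lines of equal signal and of replicate 2 lower by 1 log2 unit. Of the 42 points, 39 lie below the line of equal signal.

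A run of neighbouring genes on chromosome 6 holds 3 of the loci, LOC4340079 and LOC4340085 being included only through their shared probe set. In the order of the gene table it reads LOC4340079, LOC4340081, LOC4340082, LOC4340083, LOC4340084, LOC9271477 and LOC4340085. LOC4340083 has 2 switched-on probe sets, which differed by 6.99 ± 0.77 and 6.85 ± 0.71 log2 units (SE, n = 2 each). In controls they read 3.85 and 2.88, and 3.57 and 3.09. The shared probe set of LOC4340085 and LOC4340079 gave 11.77 and 9.75 under 30% CO2 and 3.90 and 3.71 in controls, 123.9-fold.

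LOC4340084, which missed the limits, read 12.59 and 10.10 under 30% CO2 and 6.72 and 5.60 in controls, higher by 5.19 ± 0.88 log2 units (SE, n = 2 each; limma, adjusted p = 0.0286). LOC4340079 also has probe sets of its own, which read lower: 8.79 and 6.80 under 30% CO2 against 5.67 and 5.33 in controls, and 6.09 and 3.73 under 30% CO2 against 2.93 and 2.80 in controls. Neither was called by limma (adjusted p = 0.105 and 0.186). LOC4340081, LOC4340082 and LOC9271477 have no probe set of their own here. The probe sets of these loci share name numbers, except the dimmer of these 2 of LOC4340079, Os.37255.1.A1_at. Some end in _s_at or _x_at. How much each locus contributes to a signal of a shared number is therefore uncertain. In every probe set of this run that met the limits, 30% CO2 replicate 1 was the brighter.

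**Figure D5:**
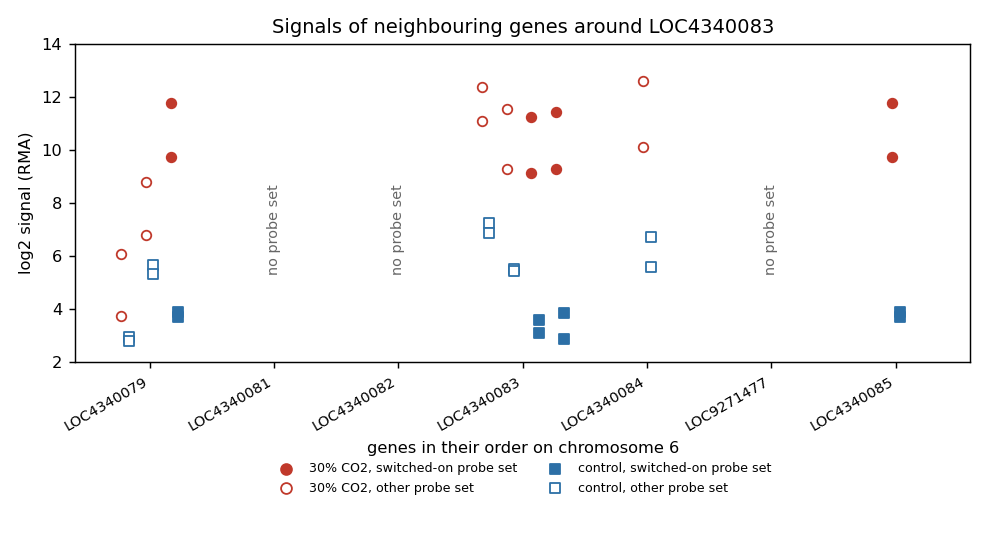
Log2 signal of the probe sets of neighbouring genes on chromosome 6, in the order of the gene table, in samples under 30% CO2 and in controls. The probe sets of LOC4340083, LOC4340084 and the shared set of LOC4340085 and LOC4340079 are the brightest under 30% CO2.

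Genes next to a switched-on gene were mostly not called. Of 52 direct neighbours in the gene table, 26 were measured. limma called 5 of the 26 higher (19.23%), beside 8.93% of all genes, and 1 lower, beside 13.5% of all genes. Next to LOC4331044, MGD3, a synthase of membrane galactolipids, read 9.39 and 8.98 under 30% CO2 and 7.42 and 7.32 in controls, higher by 1.82 ± 0.18 log2 units (SE, n = 2 each; limma, adjusted p = 0.00847). Its neighbour on the other side, LOC4331043, was higher by 1.01 log2 units (limma, adjusted p = 0.0135). LOC4326486 and LOC4331384 were higher by 0.64 and 0.62 log2 units, and LOC4326398 was lower at -0.75. The largest of the 5 was LOC4340084, higher by 5.19 log2 units. Its probe set shares a name number with those of its neighbour LOC4340083, and whether it is a separate signal was not tested. How far the calls of these neighbours depend on single samples was not tested. On the whole array, leaving out a sample left a lone sample in its group and less data to estimate the spread. limma called 2477 probe sets on the whole array without 30% CO2 replicate 2, and 0 without 30% CO2 replicate 1, control replicate 1 or control replicate 2, where 11506, 9691 and 9246 had an unadjusted p under 0.05.

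The limits are sharp cuts through a continuous range. Just inside the control limit were LOC4332910, whose higher control value was 4.97, and OsAffx.11862.1.S1_at and Os.55650.1.A1_at, both at 4.86. Just outside it were probe sets of LOC4335304 at 5.03, of OsAffx.7025.1.S1_at at 5.09 and of LOC4335658 at 5.13. Just inside the 30% CO2 limit were OsAffx.24805.1.S1_s_at, whose lower 30% CO2 value was 8.06, LOC4326397 at 8.10 and Os.50402.1.S1_at at 8.12. Just outside it were LOC4337371 at 7.99, Os.9997.1.S1_at at 7.98 and LOC4345919 at 7.95.

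Genes with names stood close by. Within 1 log2 unit of the limits were 188 further probe sets, and 23 of these read 22 named genes, which were picked out after their values were seen. HSP17.4, a small heat shock protein, read 10.30 and 7.88 under 30% CO2 and 4.74 and 4.59 in controls, so the second 30% CO2 sample alone kept it outside. The alpha-amylase AMY1.3, a starch-degrading enzyme, missed in the same way, with 10.12 and 7.58 under 30% CO2 and 4.46 and 4.51 in controls. HSP18.1, another small heat shock protein, was bright under 30% CO2 (11.63 and 9.03) but had 5.46 and 5.82 in controls.

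ATG5, a component of autophagy, read 8.42 and 8.16 under 30% CO2 and 5.94 and 5.98 in controls. The tubby-like gene TULP12 read 8.56 and 8.55 under 30% CO2 and 5.31 and 5.88 in controls. JAZ13, of a family of jasmonate signalling repressors, missed both limits with 9.32 and 7.88 under 30% CO2 and 5.30 and 5.22 in controls.

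Named genes of fermentation, low oxygen and starvation were read from a separate list, which does not hold PDC1 and ADH2. Of its 41 names, 22 genes were measured. By limma (adjusted p 0.05 over all probe sets) 10 rose, 2 fell and 10 did not pass, beside 8.93% of all genes called higher and 13.5% called lower. The median difference was 0.59 log2 units, beside -0.08 over all genes. The list was drawn up with earlier results of these data known, so its count is not independent evidence. Both controls were below 5 in 4 of the 22, AMY1.3, AMY1.1, PDC3 and SUS3.

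PDC2, a pyruvate decarboxylase, read 13.24 and 12.71 under 30% CO2 and 9.18 and 8.87 in controls, higher by 3.95 ± 0.23 log2 units (SE, n = 2 each; limma, adjusted p = 0.00444). The hemoglobins NSHB1 and NSHB2 rose by 2.98 and 2.28 log2 units, and the glycolysis genes GAPC3 and ENO1 by 3.10 and 2.03. CPDK2, TPP1, a trehalose phosphate phosphatase, AMY1.3, ATG5 and SUS2, a sucrose synthase, rose by 3.69, 4.05, 4.36, 2.33 and 1.18 log2 units. RBOHB, an NADPH oxidase, fell by 2.46 and SUS4 by 1.44. PDC3 stayed dim, with 4.60 and 4.65 under 30% CO2 and 4.21 and 4.30 in controls, and did not pass. Of the list, 0 genes passed without 30% CO2 replicate 1, control replicate 1 or control replicate 2, where 10, 10 and 9 had an unadjusted p under 0.05 in limma, and 9 rose without 30% CO2 replicate 2.

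Leaf markers were bright in all 4 samples. The 11 leaf mesophyll markers, which include the small subunit of Rubisco and chlorophyll-binding proteins, had means of 7.74 to 13.64 under 30% CO2 and 8.28 to 13.65 in controls, and 5 of the 11 fell and 0 rose by limma, beside 13.5% of all genes called lower and 8.93% called higher. Their summed log2 signal was 125.0 and 123.4 in the 30% CO2 samples and 131.3 and 130.6 in the controls. The marker name FNR was matched by LFNR1 and also by LOC4342399 and LOC4334338, which were not checked to be leaf forms. LOC4342399 had the lowest mean under 30% CO2 (7.74) and is among the 5 that fell. LOC4334338 had the lowest mean in controls (8.28). The 6 root markers had means of 2.59 to 7.02 under 30% CO2 and 2.57 to 6.51 in controls and summed to 27.1 and 26.7 under 30% CO2 and 25.01 in both controls. Of these 6, the iron transporter gene IRT2 and SCR1 rose and IRT1 fell, beside the same shares of all genes. The 3 seed markers had means of 2.26 to 8.60 under 30% CO2 and 2.41 to 8.87 in controls, the brightest being the glutelin gene GLUA-2, and levels of different probe sets cannot be ranked against each other. None of the 6 markers of dividing cells and 3 of seed was called by limma, and their summed signals overlapped between groups for dividing cells (25.98 and 24.28 under 30% CO2, 26.14 and 22.69 in controls) and did not for seed (14.63 and 13.86 under 30% CO2, 14.76 and 15.13 in controls). Their part in the switched-on pattern was not tested.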

How the data were processed

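Per the labels' protocols, biotin-labelled RNA of 2 samples under 30% CO2 and 2 controls was hybridised to Affymetrix rice arrays. The authors deposited log2 signals, 1 column per sample; the submitters' processing notes name RMA and limma, and their versions are not given in the sources used here. The values were used as deposited. The number of arrays limits the precision.

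Genes were assigned by the platform annotation and a rice gene table (assembly ASM3414082v1, used for names, spans and neighbour order): 22436 had 1 gene, 95 several and 34663 none. The members and gene lists were chosen with earlier results of these data known. Differences were computed as 30% CO2 minus control and fitted with limma 3.58.1 in R 4.3.3 (lmFit, eBayes, two-sided, no block), adjusted by Benjamini-Hochberg over all probe sets, threshold 0.05; SE is limma's, with 2 residual degrees of freedom and 2.85 from the prior. The script was tested on simulated data. A gene outside the members was represented by the probe set whose mean was highest. Tables and figures used Python 3.11.15, pandas 2.3.3 and matplotlib 3.10.9.

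Genes to name were set by rule: the 10 members with the largest difference and an assigned gene, the 5 brightest under 30% CO2, the 3 widest and the 3 narrowest replicate gaps, the 3 probe sets on each side of each limit, and list genes past the threshold; other members, neighbours and near genes named were chosen after their values were seen. Replicate differences of the groups correlated at -0.10 over probe sets, so replicate numbers were not taken as pairs. Alternatives were other limits, normalizations, filters, probe set choices, a replicate block and each sample left out. Promoter motifs and protein likeness were planned and are not analysed here.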

Additional observations from a re-analysis of the deposited data

How the results depend on the processing

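The count of 42 was 32 to 56 with either limit moved by 0.5 log2 units, 45 after quantile normalization, 42 with arrays centred on their medians and 35 without probe sets ending in _x_at or _s_at. It was 22 with 1 probe set per gene, which leaves out probe sets without a single gene and reads 4 genes by a brighter probe set that missed the limits, and 43 to 86 with each sample left out in turn, 86 being without 30% CO2 replicate 2. Limma called 6583 probe sets (2706 higher), and 5096 to 7143 under the other normalization, filters and variance prior. With the replicate number as a block it called 1691 (806 higher), and with a crossed pairing of the numbers, chosen after seeing the data, 3478. With each sample left out it called 0 to 2477; the 0 without 30% CO2 replicate 1, control replicate 1 or control replicate 2 stands beside 11506, 9691 and 9246 at an unadjusted p under 0.05. In such fits the lone sample is assumed to vary like the other group. Of the low oxygen and starvation list, 10 genes were higher, 8 with the replicate block, 9 with the crossed pairing, 10 after quantile normalization, 9 by the mean of all probe sets, and 0 to 9 with each sample left out. The members' median difference of 6.47 log2 units was 5.76 to 6.84 with each sample left out, 5.98 by gene means, and 6.47 with the block, which cannot change a difference in a balanced design. The causes were not tested. The planned promoter motif and protein likeness comparisons were not run. Detection calls were not used here, so signal over background limits what the low control values show.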
